A study of Oryza sativa with 12 samples.

Results

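Roots of the rice mutant line osspt5-1#12 were compared with roots of the wild-type cultivar Nipponbare (WT), locus by locus, as the root side of a series whose title names depletion of OsSPT5-1 during vegetative growth. The mutant root and WT root groups held 3 RNA-seq libraries each. The same 2 genotypes were also sampled in shoot, with 3 libraries per genotype, and those libraries are used below only to set root values beside shoot values. All plants were kept in a growth chamber, with days of 15 h at 28 °C and nights of 9 h at 24 °C. The mutant group is a single line, so effects of the line itself and of a lower OsSPT5-1 level cannot be told apart. The labels give neither the kind of mutation nor the plants' age, and they do not say whether replicates were separate plants, so p-values measure only the spread between these libraries.

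The loci described are rows whose identifier has the form of a rice locus (Os, the chromosome, g and a 7-digit number). A locus was kept when it reached 1 FPKM (fragments per kilobase of length, scaled to library depth) or more in at least 3 of the 6 root libraries. This left 20002 loci, out of 29570 with any signal in root and 31003 in the whole series. Changes are mutant root minus WT root on the log2(FPKM + 1) scale, which understates the change of loci at low levels.

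SPT5 is an elongation factor found in all eukaryotes. Together with SPT4 it binds RNA polymerase II after initiation, holds the clamp of the enzyme closed around DNA and RNA, and helps it move along the gene. It also serves as a landing site for capping, splicing, chromatin and 3′-end factors.

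The deposited tables do not pair locus identifiers with gene names, and the reference table used here matched 1 of the 38034 identifiers of the series, giving it no name. Loci are therefore described by their level, length, chromosome and behaviour in other libraries. The level of OsSPT5-1, root marker genes and markers of other organs were not analysed here, so no targeted gene was used to check which libraries are mutant. As a check of the tissue label, each mutant root library was compared across loci with the root and shoot libraries of WT. Pearson's r with WT root libraries was 0.929 to 0.935 for mutant root library 1, 0.845 to 0.879 for library 2 and 0.818 to 0.863 for library 3. With WT shoot libraries it was 0.735 to 0.775, 0.652 to 0.722 and 0.709 to 0.793 for the same libraries. By r, each mutant root library lay closer to all WT root libraries than to any WT shoot library. By the number of loci 2-fold or more apart this held for libraries 1 and 2 but not for library 3, which was that far from WT root library 3 at 6001 loci and from WT shoot library 1 at 5810. The r of mutant root library 3 with mutant shoot library 3, 0.827, was also above its r with WT root library 3, 0.818. Depth recovered from the values was 13497602 to 15523488 reads in mutant root libraries and 10118333 to 13524692 reads in WT root libraries. At these depths 3 reads of a locus 1000 bases long correspond to 0.193 to 0.222 FPKM in mutant root and 0.222 to 0.296 FPKM in WT root.

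The mutant root libraries differed far more from each other than the WT root libraries did. Across the 20002 loci, Pearson's r was 0.854 to 0.915 between mutant root libraries and 0.976 to 0.982 between WT root libraries. Between 3806 and 4857 loci stood 2-fold or more apart in a pair of mutant root libraries, against 321 to 526 in a pair of WT root libraries. The median distance from the lowest to the highest library of a group was 0.87 in mutant root and 0.36 in WT root on the log2 scale. A distance of 4-fold or more was found for 1806 loci (9.03%) in mutant root and for 72 loci (0.36%) in WT root. At 17094 loci, or 85.5%, the mutant distance was the wider.

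Each mutant root library stood apart in its own way. Library 1 was the nearest to WT: it had 383 loci at least 2-fold above the whole WT root range and 798 at least 2-fold below it. Library 2 had 1397 above and 1680 below, and library 3 had 1197 above and 1968 below. Library 1 was also closer to every WT root library (r at least 0.929) than to the other mutant root libraries (r 0.859 and 0.915). Library 3 was the odd one among the mutants, with 490 loci at least 4-fold below both other mutant libraries and 109 at least 4-fold above them. The corresponding counts below and above were 116 and 28 for library 2, and 13 and 86 for library 1. In WT root no library had more than 11 such loci in a direction. Against mutant shoot libraries, library 3 reached an r of 0.812 to 0.827, little below its r of 0.854 and 0.859 with the other mutant root libraries. The part that plants, harvest or library preparation had in this spread was not tested.

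**Figure D1:**
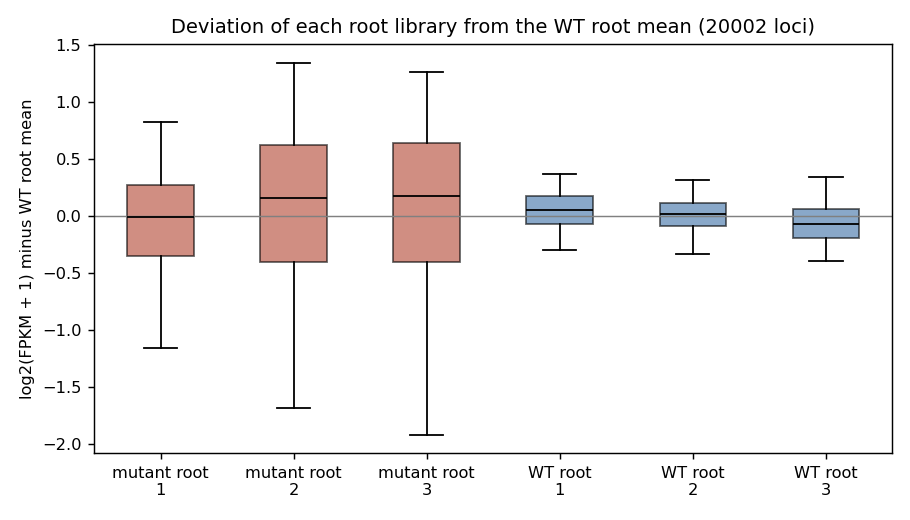
Deviation of each root library from the WT root mean over 20002 loci, in log2(FPKM + 1); boxes hold the middle 50% of loci with the median as a line, and whiskers run from the 5th to the 95th percentile. The median deviation was −0.01, 0.16 and 0.18 in mutant root libraries 1, 2 and 3 and 0.06, 0.01 and −0.07 in WT root libraries 1, 2 and 3, and the WT boxes are narrow in part because those libraries make up the mean.

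Large departures were shared among the mutant libraries more often below WT than above it. Libraries 2 and 3 were both at least 2-fold below the WT root range at 697 loci. Library 1 was also at least 2-fold below at 345 of these (49.5%), less than 2-fold below at 248 and within the WT range at 73. Libraries 2 and 3 were both at least 2-fold above the WT range at 282 loci, and there library 1 was also at least 2-fold above at 66 (23.4%), less than 2-fold above at 119 and within the WT range at 78. Taken the other way, of 421 loci low in libraries 1 and 3, library 2 was low by 2-fold or more at 345 (81.9%). Of 552 loci low in libraries 1 and 2, library 3 was low by 2-fold or more at 345 (62.5%). The 345 loci are the same each time, so these shares differ only through the number of loci low in the other libraries. The share was highest for library 2 and lowest for library 1, which also had the fewest loci 2-fold or more beyond the WT range. This is a description of the same values on which the tests below rest.

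Against this spread, 320 loci changed in mutant root (limma on the 6 root libraries, adjusted p under 0.05), which is 1.6% of the loci tested; over all rows, other kinds included, 1.89% were called. They were 55 that rose (0.275%) and 265 that fell (1.32%), so falls outnumbered rises. Every called change was at least 2-fold, and no called locus overlapped between the groups. Among rises, 31 reached 4-fold, 14 reached 8-fold and 5 reached 16-fold. Among falls, 170 reached 4-fold, 52 reached 8-fold and 18 reached 16-fold. The median change was 2.13 for rises and −2.22 for falls on the log2 scale, or 4.39-fold and 4.66-fold.

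The count of calls depended strongly on single libraries, while falls were the larger number each time. It was 1198 with mutant root library 1 left out (588 rises, 610 falls), 537 with library 3 left out (158 and 379) and 102 with library 2 left out (24 and 78). It was 29 without WT root library 1 (9 and 20), 56 without WT root library 2 (13 and 43) and 22 without WT root library 3 (10 and 12). A fit of all 12 libraries, in which root shares its spread estimate with the shoot groups, called 1591 loci (620 rises, 971 falls), 311 of them also called in the root fit in the same direction. At an unadjusted p under 0.05 there were 3462 loci.

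Small rises were common and large falls were common, which the calls alone do not show. At 2815 loci (14.1%) all mutant root libraries lay above all WT root libraries, and at 2352 loci (11.8%) all lay below. The loci with higher mutant values had a median change of only 0.64 (1.56-fold), and 453 of them (16.1%) reached 2-fold. Those with lower mutant values had a median of −1.02 (2.03-fold), and 1205 (51.2%) reached 2-fold. At 4-fold or more the counts were 53 above WT and 353 below it. The median change over all 20002 loci was 0.096, and over all rows tested it was 0.081 as deposited and −0.025 with median-ratio factors, so rises of that size depend on the scaling.

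**Figure D2:**
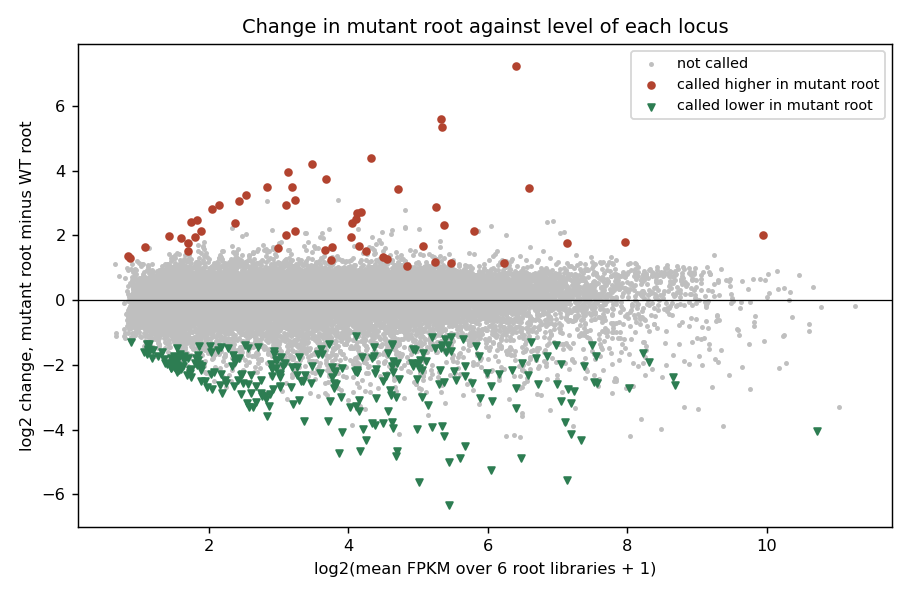
Change of each of 20002 loci, mutant root minus WT root in log2(FPKM + 1), against its mean level over the 6 root libraries. The 55 called rises (circles) and 265 called falls (triangles) run over the whole range of levels, and 170 of the falls but 31 of the rises reached 4-fold.

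The 265 called falls together made up 0.548%, 0.384% and 0.413% of the summed FPKM of all tested loci in mutant root libraries 1, 2 and 3, against 2.76%, 2.81% and 2.97% in WT root libraries 1, 2 and 3. The groups do not overlap, and the means were 0.45% ± 0.09 in mutant root and 2.85% ± 0.11 in WT root (SD, n = 3 each); these loci were chosen on the same values, so the difference is a description. The median fall was of like size in the mutant libraries, −2.05 in library 1, −2.31 in library 2 and −2.19 in library 3. Group means of the falls ran from 0 to 201 FPKM in mutant root and from 1.63 to 3170 FPKM in WT root. Of these loci, 5 in mutant root and 38 in WT root averaged 100 FPKM or more, and 95 averaged under 1 FPKM in mutant root.

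The 55 called rises made up 0.612%, 0.509% and 0.652% of summed FPKM in mutant root libraries 1, 2 and 3, and 0.142%, 0.143% and 0.118% in WT root libraries 1, 2 and 3. Their median group mean was 20.4 FPKM in mutant root and 2.35 FPKM in WT root. None of the 55 averaged under 1 FPKM in mutant root, and 26 did in WT root. The median rise was 2.24, 2.13 and 2.16 in mutant libraries 1, 2 and 3. The rises too were chosen on the same values, so these shares and medians are a description. For rises and falls alike, the test favours loci at which the mutant libraries agree.

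The largest rise was that of Os03g0115800, on chromosome 3. It had 138, 173 and 190 FPKM in mutant root libraries 1, 2 and 3, against 0, 0.362 and 0 FPKM in WT root libraries 1, 2 and 3. All mutant libraries were high and close to each other, and the WT signal came from 7 reads in library 2. The means were 167 ± 26.2 FPKM in mutant root and 0.121 ± 0.209 FPKM in WT root (SD, n = 3 each), a 1390-fold difference whose size rests on those 7 reads. The log2 change was 7.23 (SE 0.24, limma adjusted p = 0.000242).

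The other named rise was that of Os01g0537250, on chromosome 1. It had 54, 127 and 52.7 FPKM in mutant root, against 0.664, 0.372 and 0.507 FPKM in WT root. Mutant library 2 was well above the other mutant libraries, and the lowest mutant value was far above the highest WT value. The mean was 77.9 ± 42.4 FPKM in mutant root and 0.514 ± 0.146 FPKM in WT root (SD, n = 3 each), 151-fold higher in the mutant (log2 change 5.58, SE 0.37, limma adjusted p = 0.00267). The WT value rests on 22 reads in all.

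The largest fall was that of Os10g0334500, on chromosome 10. It had 0 reads in all mutant root libraries, against 44.7, 118 and 93.7 FPKM in WT root libraries 1, 2 and 3. The WT libraries held 2022 reads of it together, and WT library 1 was the lowest of them. Against a floor of 3 reads over the mutant group, 0.112 FPKM, it was at least 760.0-fold lower in mutant root (log2 change −6.32, SE 0.38, limma adjusted p = 0.00183).

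The other named fall was that of Os01g0564300, on chromosome 1. It had 0.262, 0.14 and 0.203 FPKM in mutant root, from 14 reads in all, against 63, 32.6 and 92.4 FPKM in WT root. WT library 3 was the highest and WT library 2 the lowest, and the mutant libraries were uniformly low. The mean was 0.202 ± 0.0611 FPKM in mutant root and 62.7 ± 29.9 FPKM in WT root (SD, n = 3 each), 311-fold lower in the mutant (log2 change −5.61, SE 0.39, limma adjusted p = 0.00267).

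These 4 loci behaved in different ways in shoot. Os03g0115800 had 52.8, 52.5 and 46.6 FPKM in mutant shoot against 0 reads in WT shoot, so it was high in both organs of the mutant and close to or at 0 in both organs of WT. Os01g0537250 had 122, 110 and 123 FPKM in mutant shoot against 2.5, 3.2 and 2.79 FPKM in WT shoot, a 41.9-fold rise. In both tissues the mutant libraries stood clear of WT. Os01g0564300 had 5.56, 5.39 and 11 FPKM in mutant shoot against 51.6, 45 and 96.4 FPKM in WT shoot, 8.78-fold lower. Os10g0334500 had 2, 1.86 and 1.53 FPKM in mutant shoot against 6.45, 0.218 and 4.11 FPKM in WT shoot, where the groups overlapped (limma adjusted p = 0.72). So this locus was read in mutant shoot at a low level, although no read of it was found in mutant root.

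**Figure D3:**
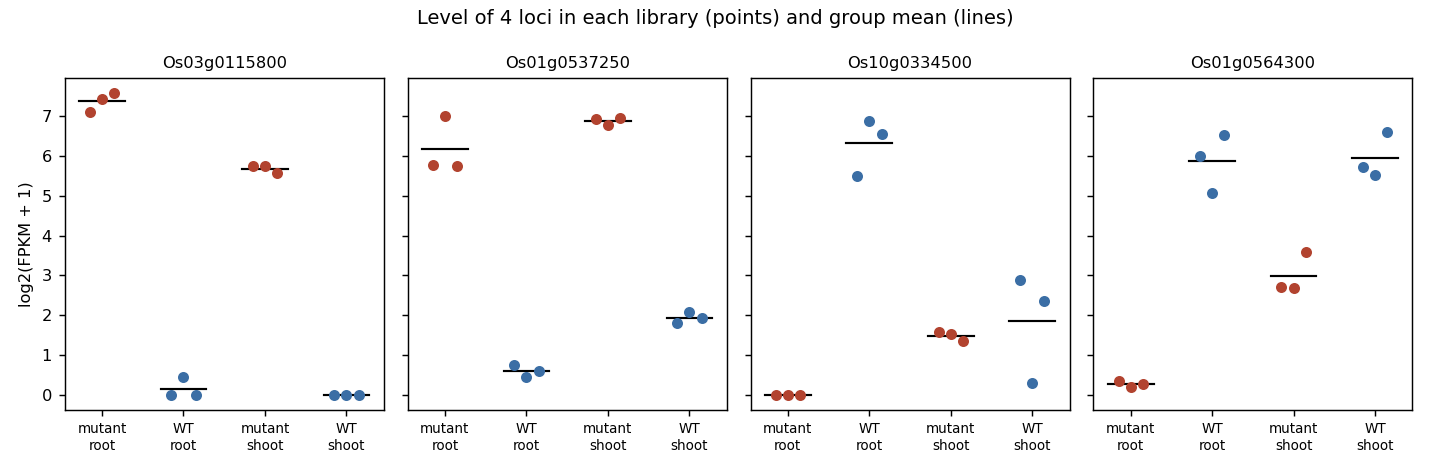
Level of the 2 loci with the largest called rises and the 2 with the largest called falls in root, as log2(FPKM + 1) in each library (points) with the group mean (line). Mutant and WT root libraries do not overlap at any of them; Os10g0334500 is at 0 in mutant root and overlaps between mutant shoot and WT shoot.

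A few loci were read in roots of 1 genotype alone. There were 5 loci with no read in the WT root libraries, 4 of them called, with group means of 1.17 to 6.89 FPKM in mutant root from 29 to 411 reads each. All 5 had reads in WT shoot, and 4 were called in shoot. There were 8 loci with no read in the mutant root libraries, 6 of them called, with group means of 1.19 to 85.4 FPKM in WT root from 46 to 2022 reads each. Of these 8, 3 had no read in mutant shoot either, 2 had none in WT shoot, and 3 were called in shoot. Over all loci tested, 1.6% were called in root, and in shoot 8.86% rose and 7.8% fell. A locus here had to reach 1 FPKM in 3 libraries, so one that is read in a single genotype passed only by being present in every library of the other. That favours a call in root, so the counts of calls among these loci are a description.

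The loci called in root were next looked up in shoot, in libraries that the root comparison did not use. Of the 55 called rises, 49 were tested in shoot (limma on the 6 shoot libraries). There 34 rose (69.4%), against 8.88% of all loci tested in both tissues, and 1 fell. Their median change in shoot was 1.91, against 0.15 for all loci. Of the 265 called falls, 182 were tested in shoot. There 81 fell (44.5%), against 6.71% of all loci tested in both, and 10 rose. Their median change in shoot was −0.91. Over all loci tested in shoot, 8.86% rose and 7.8% fell. The shoot comparison has its own WT libraries, but both tissues come from the same mutant line.

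The size of the change was then set side by side in the tissues. For the 49 rises the median change was 2.13 for root and 1.91 for shoot, and the test of the difference itself (limma interaction on all 12 libraries, adjusted p under 0.05) called 10, of which 8 were more positive in root. For the 182 falls the median change was −2.23 for root and −0.91 for shoot, and the interaction called 63, of which 62 were more negative in root. Over all loci tested in both tissues the interaction called 402 of 18282 (2.2%), 144 more positive and 258 more negative in root, and over all loci in the 12-library fit it called 3.44%. Being chosen in root favours a larger change there, for rises and falls alike. The interaction test also shares its spread estimate over all groups, although the spread of mutant root was far wider than that of WT root. The falls also started lower in shoot, with a median of 32.2 FPKM in WT root and 13.2 FPKM in WT shoot, while over all loci tested in both the median was 11.9 FPKM in each. The 83 falls and 6 rises that were not tested in shoot did not reach 1 FPKM in 3 shoot libraries.

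**Figure D4:**
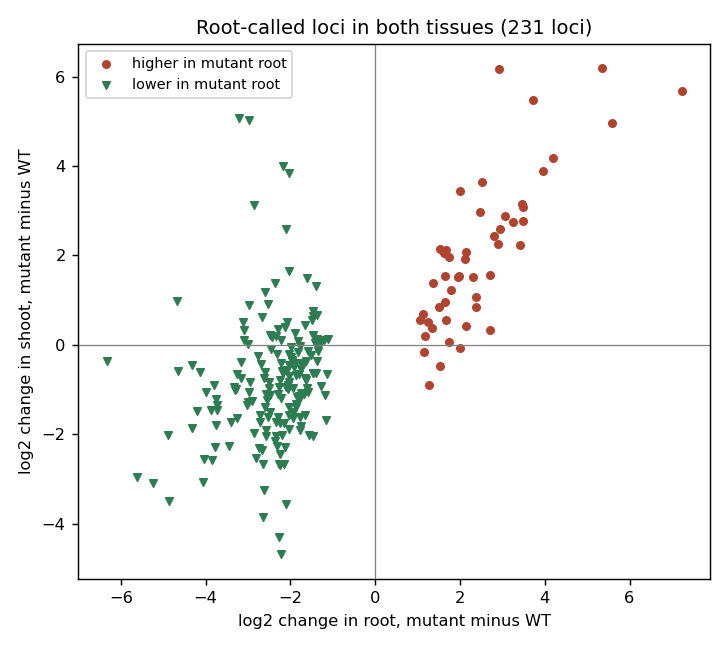
Change in shoot against change in root, both mutant minus WT in log2(FPKM + 1), for the 231 root-called loci that were also tested in shoot. Of the rises (circles) 45 of 49 lie above 0 in shoot, against 63.6% of all loci tested in both tissues, and of the falls (triangles) 141 of 182 lie below 0, against 36.4%.

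The loci were next grouped by their level in WT shoot, which the root comparison did not use. Of 112 loci with no read in WT shoot, 7 rose (6.25%) and 13 fell (11.6%) in mutant root, against 0.275% and 1.32% of all loci. Of 1975 loci at under 1 FPKM in WT shoot, 18 rose (0.911%) and 59 fell (2.99%). The median root level was 2.15 FPKM where WT shoot had no read and 2.05 FPKM in the class under 1 FPKM. At such levels a locus can pass the filter through the genotype in which it is high. That favours calls in either direction, so these shares are a description. Between 1 and 10 FPKM in WT shoot, 18 of 7895 rose (0.228%) and 86 fell (1.09%), and between 10 and 100 FPKM 11 of 8966 rose (0.123%) and 79 fell (0.881%). At 100 FPKM or more, 1 of 1054 rose (0.0949%) and 28 fell (2.66%), so the share of falls was lowest in the middle classes and higher at both ends. The median change in root was −0.35 where WT shoot had no read, −0.05 below 1 FPKM, 0.13 from 1 to 10 FPKM, 0.1 from 10 to 100 FPKM and 0.02 at 100 FPKM or more. In the class with no read in WT shoot, mutant root libraries 1, 2 and 3 had medians of −0.38, −0.58 and −0.7, against −0.05, 0.07 and −0.09 for the WT root libraries, so all mutant libraries lay below all WT libraries. Fewer cells of a root cell type and less RNA per cell cannot be told apart in these whole-root libraries.

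By chromosome, the share of called loci was highest on chromosome 11. Of 1144 loci tested on it, 7 rose (0.612%) and 37 fell (3.23%), against 0.275% and 1.32% over all chromosomes. Chromosome 9 followed for falls, with 22 of 1056 (2.08%), and chromosome 8 for rises, with 7 of 1323 (0.529%). Chromosomes 2 and 5 had the lowest shares of falls, 0.732% and 0.669%, and no rise was called on chromosomes 6 and 12. The order was another one for loci whose mutant values all lay below WT, by 2-fold or more on average, whether called or not. These made up 9.06% of loci on chromosome 10, 8.57% on chromosome 11 and 5.4% on chromosome 9, against 6.02% over all chromosomes. The number of calls on chromosome 11 moved in the same order as the total, but not in proportion to it. It was 2, 3 and 7 with WT root library 3, 1 or 2 left out, and 12 with mutant root library 2 left out. With mutant root library 3 or 1 left out it was 54 and 90. Without mutant root library 1 it rose from 44 to 90, while the total rose from 320 to 1198. In the fit of all 12 libraries it was 127 of 1591, so the excess on chromosome 11 was smaller in these 2 settings. The median locus length was 1618 bases on chromosome 11 and 1538 to 1606 bases on the others.

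Calls were also counted by position. Locus numbers follow the order along a chromosome, so stretches of numbers are stretches of the chromosome. Among stretches of 100000 numbers with at least 50 tested loci, the one from 400000 to 499999 on chromosome 11 had the highest share of calls. It held 9 falls and 2 rises among 122 loci (9.02%), against 1.6% of all loci. The stretches were ranked by these shares, so the highest of them are a description. The stretches from 600000 on the same chromosome (5.34%), from 300000 on chromosome 9 (5.26%, 11 falls and no rise) and from 200000 on chromosome 11 (4.64%) came next. Called loci next to each other among tested loci, changed in the same direction, formed 15 groups of falls and 3 groups of rises. Whether this is more than evenly spread calls would form was not tested. The longest was 3 falls in a row on chromosome 11, which held 5 of the 18 groups.

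Over all levels together, locus length moved with the change in mutant root mostly through library 2. The loci were put in 5 length classes of about equal size, with bounds at 174 to 943, 944 to 1367, 1368 to 1810, 1811 to 2509 and 2510 to 9536 bases. The median change was 0.18, 0.14, 0.1, 0.08 and 0.03 from the shortest to the longest class. In mutant root library 2 the class medians were 0.4, 0.23, 0.16, 0.1 and 0.02, in the same order. In mutant root library 1 they stayed between −0.02 and 0.01, and in library 3 between 0.12 and 0.23 with the highest value in the middle class. The WT root library medians lay between −0.1 and 0.08. Without mutant root library 2 the shortest class had a median of 0.08 and the longest of 0.04, so over all levels together the gradient rests largely on that library. With median-ratio factors the medians were 0.08 and −0.07, so the sign for the longest class depends on the scaling.

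Called rises numbered 23 of 4006 (0.574%) in the shortest class and 5 of 4000 (0.125%) in the longest. For falls the shares were 1.77% in the shortest class and 1.15% in the longest. The length classes were also compared within levels. At a mean over 100 FPKM the median change was 0.41 for 426 loci of the shortest class and −0.14 for 89 of the longest, and libraries 2 and 3 both showed it (0.6 and 0.52 in the shortest class, −0.2 and −0.19 in the longest). Library 1 had 0.1 and 0.11 there. From 10 to 100 FPKM the medians were 0.23 and 0.03. Libraries 2 and 3 both showed this too, with 0.47 and 0 in library 2 and 0.26 and 0.05 in library 3. Library 1 had 0.03 and 0.05. Below 10 FPKM the medians were 0.09 and 0.04. Library 2 had 0.3 and 0.06 there, library 3 went the other way with 0.04 and 0.19, and library 1 had −0.06 and −0.12. The part of RNA quality in these differences was not tested.

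**Figure D5:**
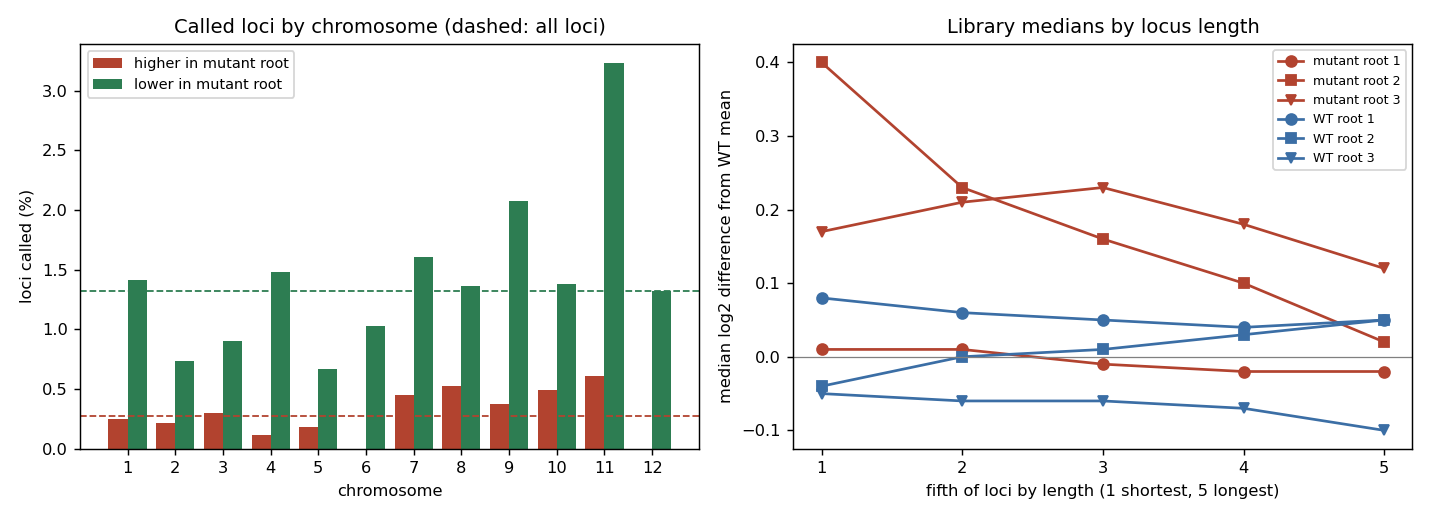
Left, share of tested loci called higher or lower in mutant root on each chromosome, with the share over all chromosomes dashed (0.275% higher, 1.32% lower); chromosome 11 has the highest share of falls, 3.23%. Right, median log2 difference of each root library from the WT root mean in 5 length classes; mutant root library 2 runs from 0.4 in the shortest class to 0.02 in the longest, and library 1 stays near 0.

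By level in root, falls were called at 1.34% of loci between 1 and 10 FPKM, 1.24% between 10 and 100 FPKM and 2.02% above 100 FPKM (25 of 1240). Rises were called at 0.238%, 0.301% and 0.242% of the same classes. The median change was 0.08, 0.11 and 0.14 in these classes, close to the median of 0.096 over all loci. At a mean under 1 FPKM, 2 of 222 loci rose (0.901%) and 1 fell (0.45%), with a median change of −0.19. At such a mean a locus can pass the filter through the genotype in which it is high, so the values of this class are a description. Called loci were also tight in the mutant, which a test against the spread favours. The median distance between mutant libraries was 0.57 for rises and 0.64 for falls, against 0.87 over all loci. Between WT libraries it was 0.27 for rises but 0.59 for falls, against 0.36 over all loci. Of the falls, 95 averaged under 1 FPKM in mutant root, where the log2(FPKM + 1) scale narrows distances.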

How the data were processed

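RNA was taken from root and shoot of WT Nipponbare and the mutant line. The library kit was NEBNext Ultra, with 2 µg of input RNA, per the labels' protocols; it does not mark strand, so overlapping antisense genes, and near-identical copies, cannot be told apart. Per the file headers, the authors deposited FPKM, with a file for each library. Bowtie2 2.2.3, HISAT2 2.1.0, HTSeq 0.6.0 and the build IRGSP-1.0 are listed, with no role or order, in the submitters' processing notes.

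FPKM values step by the worth of 1 read, from which reads, lengths and depths were recovered (tolerance 0.02 reads, smallest fit, so sparse rows are uncertain). Floors cover counting error only. Tests used limma 3.58.1 (R 4.3.3, limma-trend, Benjamini-Hochberg) on log2(FPKM + 1) of the 6 root libraries and all 22196 rows that passed the filter, of which 419 (1.89%) were called; 20002 were loci. The shoot fit was alike. The recovery of reads and the fit of the 6 root libraries were tested on simulated data. The simulation of the fit gave mutant and WT libraries the same spread, so it does not bear on their unequal spread here. Loci named are the 2 largest called rises and 2 largest falls without overlap and with a mean of 1 FPKM or more. Lists of genes by name were not used, since identifiers could not be paired with names. The comparison and the rules were chosen with earlier results of these data known; classes of length, level, chromosome and shoot level were chosen after the data were examined.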

Additional observations from a re-analysis of the deposited data

Results flagged for a closer look

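Of the 4 named loci, 3 had an effect of the mutant line that differed between tissues by limma's interaction test on all 12 libraries. The loci were chosen for large changes in root, on the same root values, which favours a larger change there. For each locus the test also shares a spread estimate over all groups, although the mutant root libraries differ far more from each other than WT root libraries do. Root minus shoot, the log2 changes differed by 1.54 for Os03g0115800 (adjusted p = 0.0094), by −5.96 for Os10g0334500 (adjusted p = 0.00304) and by −2.65 for Os01g0564300 (adjusted p = 0.0288). Os10g0334500 had 3.59 ± 3.15 FPKM in WT shoot (SD, n = 3), a low level from which to fall. Os01g0564300 had 64.4 ± 28 FPKM in WT shoot and 62.7 ± 29.9 FPKM in WT root (SD, n = 3 each), and yet it fell further in root. For Os01g0537250 the difference was 0.62 (adjusted p = 0.5), which does not show that the effects are alike. No test for outlying libraries was run on groups of 3.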

How the results depend on the processing

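The number of called loci, 320, was 1591 in the fit of all 12 libraries, 152 with no filter on low values, 112 with 1 FPKM required in all 6 root libraries and 22 to 1198 when a library was left out. With a replicate block it was 127 (115 shared with the 320 in the same direction). Same-numbered mutant and WT root libraries did not deviate together (correlations of −0.488, −0.145 and −0.265). This cannot decide whether they were handled together, since mutant root libraries differ far more from each other than WT root libraries do. The labels do not say whether the numbers pair the libraries. With a pseudocount of 0.1, median-ratio factors, quantile normalization, array weights or locus rows alone it was 230, 354, 329, 227 and 431. Rises made up 17.2% of calls, against 39.0% in the fit of all 12 libraries, 15.0% with median-ratio factors, 24.6% with quantile normalization and 49.1% without mutant root library 1; falls stayed in the majority in each setting tried. The median distance between mutant root libraries, 0.87, was 1.03 with a pseudocount of 0.1, 0.82 with median-ratio factors and 0.81 with quantile normalization. The 4 named loci kept their direction and their call in each of the settings in which they were tested, with limma adjusted p of 1.24e-08 to 0.00615 for Os03g0115800, 4.01e-06 to 0.0211 for Os01g0537250, 0.000193 to 0.0198 for Os10g0334500 and 2.96e-05 to 0.0276 for Os01g0564300. The cause of the moves was not tested. Lists of genes by name were not run.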
